A study of Mus musculus with 9 samples.

Results

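The hearts described carry the label Tg-GRK2, which names mice with a GRK2 transgene, and are set against non-transgenic FVB controls. They make up 6 of the 9 libraries of the series, with 3 libraries labelled Tg_GRK2 and 3 labelled FVB, and were chosen by these labels alone. The other 3 libraries, from RKIP-transgenic (Tg-RKIP) hearts, entered the model of the spread and are cited beside some results. Each library was made from the heart of 1 male mouse killed at the age of 8 months, all mice had the FVB/N background, and control mice carried no transgene. Whole hearts were snap-frozen and ground, and total RNA went into random-primed libraries of fragmented mRNA that were sequenced as single reads of 50 bases. The promoter that drives the GRK2 transgene, the species of its cDNA and the number of founder lines are not given in the sources used here.

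GRK2 is a serine-threonine kinase that phosphorylates agonist-occupied G-protein-coupled receptors, among them the beta-adrenoceptors of the cardiomyocyte. The phosphorylated receptor binds beta-arrestin, uncouples from its G protein and is internalized, so that the cAMP response to catecholamines declines. GRK2 is raised in failing hearts, where beta-adrenoceptors are desensitized. The comparison asks which transcripts differ between hearts with this label and control hearts.

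The 6 libraries held between 26842772 and 32801403 reads on transcripts. Reads of all transcripts that carry the same gene name were added up, and a log2 fold change is the Tg-GRK2-labelled libraries over FVB on TMM-normalized counts. Each log2 fold change is given with its standard error where a test is quoted, and every adjusted p comes from the quasi-likelihood test of edgeR, adjusted over 15504 genes by the method of Benjamini and Hochberg. A gene rose or fell where this adjusted p was under 0.05. Levels in TPM are the deposited values, corrected for transcript length and scaled to the same total in each library, and summed per gene. By this test 12.2% of all genes tested rose and 12.2% fell, and the TMM-normalized values of the groups did not overlap for 37.1% of genes. The median log2 fold change over all genes was -0.00229. The spread between libraries was small, with a biological coefficient of variation of 3.68% in the Tg-GRK2-labelled libraries and 2.12% in FVB, so that shifts of a few percent passed the test. No library of either group stood apart or shared values with another. Squared differences between libraries were set against counting error, in genes with a mean of at least 50 reads. The median ratio was 1.25 to 1.41 for pairs within the Tg-GRK2-labelled group and 1.37 to 1.48 within FVB. Between these groups it was 3.33 to 3.94. The small p-values rest on this narrow spread within groups, close to counting error, and its cause was not tested. The p-values measure only the spread between 3 hearts a group, and the labels give no batch of housing or processing. A gene's level in a heart homogenate cannot tell apart fewer cells of a type from less RNA in each cell.

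The label was checked first on the targeted gene. Grk2 (chr19:4336029-4356250, minus strand, GRCm39) had 26.4, 24.9 and 30.5 TPM in the Tg-GRK2-labelled libraries and 27.9, 25.9 and 27.4 TPM in FVB. The values of the groups overlapped, and the gene sum did not pass the test (log2 fold change 0.05 ± 0.04, adjusted p = 0.354). The transcripts of the gene did not behave alike. The transcript of 21 exons and 3376 bases (ENSMUST00000088737) had 503, 499 and 638 reads in the Tg-GRK2-labelled libraries and 280, 420 and 306 in FVB. In TPM it was 1.59 ± 0.0948 times the FVB mean (SD, n = 3), and it rose in a test of 34991 transcripts as separate rows (log2 fold change 0.62 ± 0.11, adjusted p = 0.0286). In that test 3.42% of transcripts passed. The major transcript of 22 exons and 3182 bases (ENSMUST00000025791) had 910, 938 and 1015 reads against 892, 1080 and 934, and did not pass (log2 fold change -0.11 ± 0.04, adjusted p = 0.323). Its mean was 15.4 TPM in the Tg-GRK2-labelled libraries and 16.1 TPM in FVB, but 24.1 TPM in the Tg-RKIP hearts, which lack the GRK2 label. The transcript of 21 exons had a mean of 4.41 TPM in Tg-RKIP. How reads that match several transcripts were assigned is not given in the sources used here, and the values of single transcripts depend on it. Since the gene sum did not separate the groups, the libraries are named by their label throughout.

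**Figure D1:**
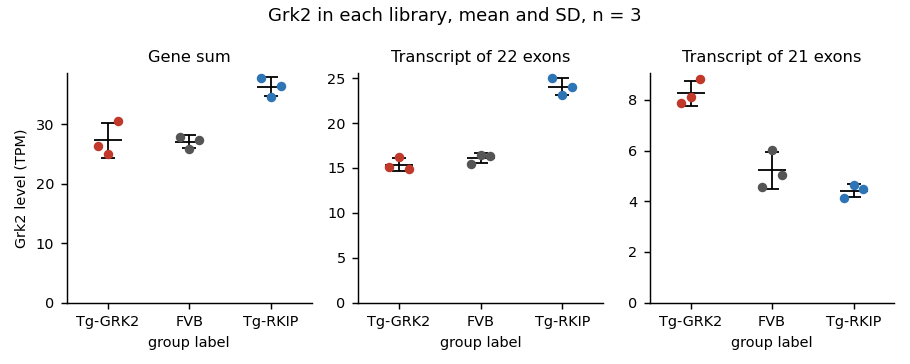
TPM of Grk2 as the sum over its transcripts and of its 2 most abundant transcripts, in each library of the 3 groups, with points for libraries and bars for the mean and SD (n = 3). The gene sum overlapped between Tg-GRK2-labelled and FVB libraries, while the transcript of 21 exons had a mean of 8.26 TPM in the former and 5.21 TPM in the latter.

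Other GRKs and the arrestins were close to the controls. Of 7 genes of this list that were tested, 1 rose and 0 fell, beside 12.2% of all genes in each direction. Arrb1, beta-arrestin 1, rose with 6.64, 7.36 and 6.81 TPM in the Tg-GRK2-labelled libraries and 5.92, 6.08 and 6.23 TPM in FVB (log2 fold change 0.13 ± 0.04, adjusted p = 0.0284), and it no longer passed once transcript length was entered as an offset (adjusted p = 0.245), by DESeq2 (adjusted p = 0.0902), or without Tg-GRK2 replicate 3, FVB replicate 1 or FVB replicate 3 (adjusted p = 0.176, 0.0886 and 0.103). Its most abundant transcript alone did not pass either (adjusted p = 0.144), nor did the gene against a minimum change of 1.5-fold. Grk5, the other major GRK of the cardiomyocyte, had a mean of 8.68 ± 0.272 TPM against 8.87 ± 0.00737 TPM (SD, n = 3; log2 fold change -0.09, adjusted p = 0.0845), and with the length offset it passed below FVB (log2 fold change -0.14, adjusted p = 0.00837). Arrb2, Grk3, Grk4 and Grk6 did not pass either. Grk1, Arr3 and Sag, genes of the retina, had too few reads to test.

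The interferon-inducible GTPases and the genes of antigen presentation had the lowest median log2 fold changes of the 63 gene lists examined. Interferon-gamma acts on genes with gamma-activated sites and, through IRF1 and related factors, on genes with interferon-stimulated response elements. It induces the immunity-related GTPases (IRG) and guanylate-binding proteins, which attack the vacuoles of intracellular pathogens, and the class I and class II MHC pathways. Class II genes, and in part class I genes, also carry an upstream enhanceosome whose Y box is bound by NF-Y and which recruits CIITA or NLRC5. Stretches of promoters of genes that fell are shown here, because their letters include these elements. They come from RefSeq (GRCm38.p6), are 80 bases long, read 5′ to 3′ on the strand of the gene and lie before the annotated start of the gene. In the first 4, capitals mark a gamma-activated site (TTCNNNGAA) or the core of a response element (GAAA, any 2 bases, GAAA, or TTTC, any 2 bases, TTTC on the other strand), and in the last 2 the Y box CTGATTGG.
Igtp, chr11:58199456-58199535, plus strand: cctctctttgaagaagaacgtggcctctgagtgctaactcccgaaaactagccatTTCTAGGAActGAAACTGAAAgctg
Irgm2, chr11:58214877-58214956, plus strand: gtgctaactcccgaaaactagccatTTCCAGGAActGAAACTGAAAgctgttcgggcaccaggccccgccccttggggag
Tgtp1, chr11:48992267-48992346, minus strand: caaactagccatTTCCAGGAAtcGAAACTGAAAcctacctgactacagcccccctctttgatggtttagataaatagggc
B2m, chr2:122147537-122147616, plus strand: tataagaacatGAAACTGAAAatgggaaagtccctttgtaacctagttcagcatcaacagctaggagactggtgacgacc
H2-Aa, chr17:34287844-34287923, minus strand: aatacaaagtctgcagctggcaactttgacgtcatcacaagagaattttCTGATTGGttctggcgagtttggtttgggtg
H2-Eb1, chr17:34305767-34305846, plus strand: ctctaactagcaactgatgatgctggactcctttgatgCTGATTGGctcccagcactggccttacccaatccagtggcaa

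In Igtp, Irgm2 and Tgtp1 both motifs stood side by side without overlap, the second beginning 11 bases after the first. The gamma-activated sites began 45, 75 and 88 bases before the start of these genes. Windows of 300 bases were searched on both strands, 250 before and 50 after the start, in 27025 genes of the table. The response element core was in 943 windows, or 3.49%, and in 11 of the 13 windows matched to tested GTPase genes. The gamma-activated site was in 8.47% of all windows and in 7 of these 13, and the Y box was in 4.31% of all windows and in 9 of 20 windows of the antigen presentation list. In turn the gamma-activated site was in 1 of these 20 windows, the response element core in 5 of them, and the Y box in 0 of the 13 GTPase windows. Of 31 windows of other interferon response genes, 16 held the response element core, 8 the gamma-activated site and 3 the Y box. In that list, described below, 16 of 42 genes fell and the median log2 fold change was -0.16. The arrangement with a step of 11 bases was in 5 windows of the table, those of Igtp, Irgm2, Tgtp1, Tgtp2 and Gm12185. It was looked for after these windows had been read, and the 5 genes are close relatives whose sequences share descent. A match is a description of letters, not of binding.

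Of 24 interferon-inducible GTPases tested, 20 fell and 0 rose, with a median log2 fold change of -0.99 against -0.00229 over all genes. The summed level of the list was 107 to 108 TPM in the Tg-GRK2-labelled libraries and 282 to 286 TPM in FVB. Iigp1, an effector IRG that loads onto pathogen vacuoles, had 10.96, 11.9 and 11.1 TPM in the Tg-GRK2-labelled libraries and 52.8, 52.6 and 53.5 TPM in FVB (log2 fold change -2.29 ± 0.04, adjusted p = 2.98e-21). Igtp, a regulatory IRG also known as Irgm3, had 8.77, 8.66 and 8.37 TPM in the Tg-GRK2-labelled libraries and 38.2, 39.04 and 38.6 TPM in FVB (log2 fold change -2.23 ± 0.04, adjusted p = 1.37e-19). In both genes all control hearts lay above all Tg-GRK2-labelled hearts, and hearts of a group differed little. Irgm2, a second regulatory IRG, followed with 6.94, 6.75 and 7.22 TPM in the Tg-GRK2-labelled libraries and 26.9, 26.3 and 25.7 TPM in FVB (log2 fold change -1.97 ± 0.04, adjusted p = 1.36e-18).

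The T-cell-specific GTPases Tgtp1 and Tgtp2 are near-identical copies, and Igtp and Irgm2 overlap on chromosome 11 in the deposited coordinates (GRCm39), so reads may be split between them in a way that is not given. Irgm1, the third regulatory IRG, fell to a lesser degree (log2 fold change -1.02 ± 0.05, adjusted p = 6.20e-13), and Tgtp2 had 4.03, 5.37 and 4.18 TPM in the Tg-GRK2-labelled libraries and 15.99, 16.01 and 16.1 TPM in FVB (log2 fold change -1.88 ± 0.08, adjusted p = 5.09e-14). Gbp8 had the largest decrease of the guanylate-binding proteins that the naming rule took up (log2 fold change -1.75 ± 0.17, adjusted p = 1.31e-07). F830016B08Rik, a predicted member of the IRG family, had 3.14, 3.095 and 3.11 TPM in the Tg-GRK2-labelled libraries and 18.1, 17.8 and 17.5 TPM in FVB (log2 fold change -2.56 ± 0.06, adjusted p = 1.28e-18), the lowest log2 fold change of the list. Another 4 GTPases did not pass, and the highest log2 fold change of the list, which was among them, was 0.49.

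All 25 tested genes of the MHC and antigen processing list fell, with a median log2 fold change of -1.0 and a range from -1.60 to -0.22. Their summed level was 1397 to 1452 TPM in the Tg-GRK2-labelled libraries and 2323 to 2383 TPM in FVB. B2m, the light chain of every class I molecule, had 301, 307 and 315 TPM in the Tg-GRK2-labelled libraries and 583, 567 and 574 TPM in FVB (log2 fold change -0.95 ± 0.02, adjusted p = 2.47e-18). H2-K1 and H2-D1, the classical class I heavy chains, fell by less than the class II genes (log2 fold change -0.89 ± 0.02, adjusted p = 3.25e-17 for H2-K1, and log2 fold change -0.76 ± 0.02, adjusted p = 2.49e-17 for H2-D1). Class I genes resemble each other closely, and reads may be shared between H2-K1, H2-D1 and the H2-Q genes, of which H2-Q7 had a log2 fold change of -1.60 and H2-Q6 one of -1.31.

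Of the class II genes, H2-Aa encodes an alpha chain and had 60.3, 61.03 and 60.3 TPM in the Tg-GRK2-labelled libraries and 169, 157 and 169 TPM in FVB (log2 fold change -1.47 ± 0.03, adjusted p = 3.75e-20). H2-Ab1, the beta chain, and Cd74, the invariant chain that guides class II molecules to the endosome, fell similarly (log2 fold change -1.31 ± 0.03, adjusted p = 1.67e-17 for H2-Ab1, and log2 fold change -1.25 ± 0.03, adjusted p = 3.34e-19 for Cd74). Nlrc5, the transactivator of class I genes, had 70, 53 and 70 reads in the Tg-GRK2-labelled libraries and 161, 190 and 145 reads in FVB (log2 fold change -1.45 ± 0.15, adjusted p = 2.30e-07). These genes are made by antigen-presenting cells and, after interferon-gamma, by endothelium and other cells of the heart.

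The wider interferon response changed less evenly. Of 42 other response genes tested, 16 fell and 2 rose, with a median of -0.16. Irf1, an interferon-induced factor that drives class I genes, had 14.4, 14.9 and 15.3 TPM in the Tg-GRK2-labelled libraries and 20.3, 19.7 and 20.9 TPM in FVB (log2 fold change -0.51 ± 0.04, adjusted p = 1.95e-08), and Irf9, a component of the type I interferon complex, also fell (log2 fold change -0.55 ± 0.06, adjusted p = 1.02e-06). Ifi27l2a, a small interferon-inducible protein, rose with 36.02, 34.5 and 39.8 TPM in the Tg-GRK2-labelled libraries and 22.1, 23.5 and 19.4 TPM in FVB (log2 fold change 0.71 ± 0.08, adjusted p = 1.10e-06). The chemokines Cxcl9 and Cxcl10, which attract activated T cells, had few reads and fell: Cxcl9 had 25, 15 and 19 reads in the Tg-GRK2-labelled libraries and 49, 42 and 43 reads in FVB (log2 fold change -1.28 ± 0.26, adjusted p = 8.25e-04). Ifng itself had 3, 0 and 0 reads in the Tg-GRK2-labelled libraries and 2, 4 and 0 reads in FVB, too few to test.

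Markers of lymphocytes that make interferon-gamma were scarce. Of 14 T and NK cell genes tested, 0 rose or fell by edgeR's quasi-likelihood test, and their median log2 fold change was -0.69. By DESeq2 the count was 0, and at an unadjusted p under 0.05 in edgeR it was 3. Their summed level was 4.902 to 6.07 TPM in the Tg-GRK2-labelled libraries and 7.28 to 8.997 TPM in FVB. These ranges did not overlap, but the same held for the summed levels of most gene lists examined. Non-overlap alone therefore does not set T and NK cell genes apart. Their median log2 fold change was nevertheless below that of every list other than the GTPases and antigen presentation. Cd3e, a chain of the T cell receptor complex, had 7, 8 and 17 reads in the Tg-GRK2-labelled libraries and 15, 17 and 17 reads in FVB. Ncr1, a receptor of NK cells, had 3, 5 and 4 reads in the Tg-GRK2-labelled libraries and 11, 7 and 16 reads in FVB and did not pass the expression filter. The part of lymphocyte number in the levels of interferon-inducible genes was not tested.

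Macrophage genes moved in both directions. Of 31 tested, 8 rose and 8 fell, and the largest decreases were the class II genes, which the list shares with antigen presentation. Mrc1, the mannose receptor of resident macrophages, rose with 16.4, 15.5 and 16.98 TPM in the Tg-GRK2-labelled libraries and 12.5, 11.9 and 12.3 TPM in FVB (log2 fold change 0.38 ± 0.04, adjusted p = 1.26e-07). F13a1, a transglutaminase of resident macrophages, and Fcrls, an Fc receptor-like gene, rose as well (log2 fold change 0.45 ± 0.04, adjusted p = 4.06e-09 for F13a1, and log2 fold change 0.68 ± 0.09, adjusted p = 3.59e-06 for Fcrls).

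**Figure D2:**
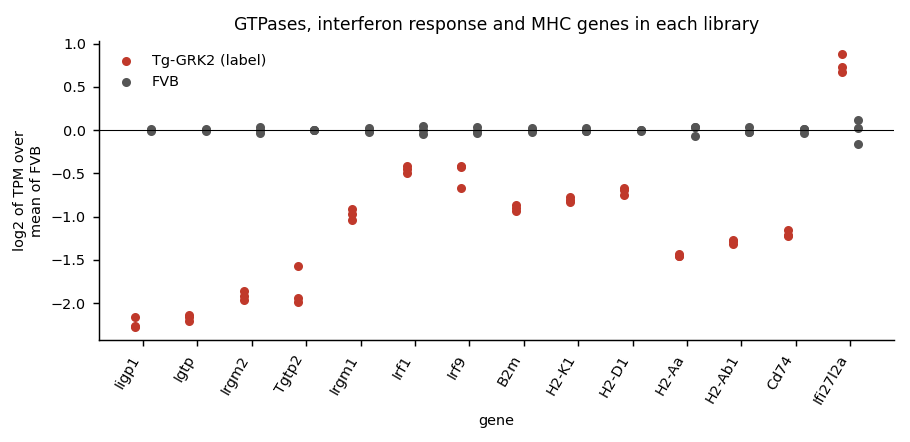
Each point is the TPM of 1 library divided by the mean of the 3 FVB libraries, on a log2 axis, for GTPases, MHC genes and interferon response genes. In every gene drawn apart from Ifi27l2a the Tg-GRK2-labelled libraries lay below all FVB libraries, and Iigp1 and Igtp were lowest at -2.29 and -2.23 by the fitted log2 fold change.

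The largest fitted increases were in genes of airway epithelium. Of 20 tested genes of club and secretory cells, 16 rose and 1 fell. The summed level of the list was 494 to 497 TPM in the Tg-GRK2-labelled libraries and 254 to 257 TPM in FVB. Scgb1a1, the major secretoglobin of club cells, had 1190, 1085 and 1284 reads in the Tg-GRK2-labelled libraries and 0, 0 and 0 reads in FVB, which is at least 369-fold higher against a floor of 3 reads per library. Bpifa1, an airway surface protein, had 928, 862 and 1014 reads in the Tg-GRK2-labelled libraries and 0, 0 and 0 reads in FVB, at least 290.5-fold higher. Scgb3a2, another secretoglobin of small airways, had 147, 122 and 176 reads in the Tg-GRK2-labelled libraries and 0, 0 and 0 reads in FVB, at least 45.9-fold higher. All these reads were spread over the 3 Tg-GRK2-labelled hearts in like amounts.

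Sec14l3, a lipid-transfer protein of airway cells, had 115, 122 and 126 reads in the Tg-GRK2-labelled libraries and 0, 0 and 0 reads in FVB, at least 37.7-fold higher. Cyp2f2, the cytochrome P450 that marks club cells, had 311, 308 and 371 reads in the Tg-GRK2-labelled libraries and 13, 9 and 6 reads in FVB (log2 fold change 5.03 ± 0.17, adjusted p = 2.83e-15). Cyp2a5, a cytochrome P450 of airway and liver, had 142, 137 and 185 reads in the Tg-GRK2-labelled libraries and 0, 0 and 1 reads in FVB, a ratio of 434 (95% exact interval 77.6 to 17190.0) that covers counting error only. Ltf, the iron-binding lactoferrin of secretory glands and neutrophils, had 116, 121 and 164 reads in the Tg-GRK2-labelled libraries and 1, 1 and 1 reads in FVB, a ratio of 125 (95% exact interval 42.5 to 609). Not all members of the list are specific to airways: Cbr2, a carbonyl reductase that the control hearts also expressed, had 43.5, 41.03 and 42.4 TPM in the Tg-GRK2-labelled libraries and 22.8, 21.3 and 23.1 TPM in FVB (log2 fold change 0.90 ± 0.04, adjusted p = 1.75e-12).

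Lists of other epithelia had fewer members that rose. Of 10 ciliated cell genes tested 3 rose and 1 fell, and of 14 basal and squamous genes 3 rose and 0 fell. Of 7 alveolar genes 1 rose and 2 fell, and the summed alveolar level was 480 to 489 TPM against 508 to 517 TPM in FVB. Foxj1, the master regulator of motile cilia, had 6, 16 and 17 reads in the Tg-GRK2-labelled libraries and 0, 1 and 0 reads in FVB, and Dnah5, a dynein arm of cilia, had 22, 16 and 37 reads in the Tg-GRK2-labelled libraries and 1, 1 and 2 reads in FVB, a ratio of 17.6 (95% exact interval 6.58 to 66.1). The surfactant gene Sftpc, which defines alveolar type II cells, had 0, 1 and 0 reads in the Tg-GRK2-labelled libraries and 0, 0 and 0 reads in FVB, and Sftpa1 had 6, 4 and 11 reads in the Tg-GRK2-labelled libraries and 0, 0 and 0 reads in FVB. Krt5, a keratin of basal cells, had 3, 2 and 5 reads in the Tg-GRK2-labelled libraries and 0, 0 and 0 reads in FVB. In the Tg-GRK2-labelled libraries the alveolar and basal markers named here thus had fewer reads than the club cell genes named above. These markers were added after their values were seen. Of the thyroid genes, Tshr, the thyrotropin receptor that adipocytes also express, had 20, 12 and 10 reads in the Tg-GRK2-labelled libraries and 0, 0 and 0 reads in FVB, while Tg, thyroglobulin, had 118, 101 and 94 reads in the Tg-GRK2-labelled libraries and 93, 125 and 94 reads in FVB. Airway genes were read in the Tg-RKIP hearts too, where Scgb1a1 had 388, 510 and 395 reads, and its level in the Tg-GRK2-labelled libraries was higher than there (1.74 on the log2 scale, adjusted p = 2.41e-17). Of the 20 genes of the list 13 were higher and 4 lower than in Tg-RKIP (7 lower with libraries scaled to their size alone), and the summed level was higher in Tg-RKIP, at 548 to 571 TPM. What tissue was removed with the hearts is not given in the sources used here, and its part in these reads was not tested.

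Many adipocyte genes and genes of lipid synthesis rose. Of 24 white adipocyte genes tested, 10 rose and 5 fell, with a median log2 fold change of 0.40. Plin1, which coats the lipid droplet of fat cells, had 5.66, 5.67 and 5.36 TPM in the Tg-GRK2-labelled libraries and 2.25, 1.99 and 3.04 TPM in FVB (log2 fold change 1.32 ± 0.09, adjusted p = 2.27e-10). Cidec, which fuses lipid droplets, had 5.05, 6.64 and 5.85 TPM in the Tg-GRK2-labelled libraries and 2.501, 2.19 and 2.65 TPM in FVB (log2 fold change 1.23 ± 0.12, adjusted p = 5.82e-08). Car3, a carbonic anhydrase abundant in fat, had 51.9, 51.4 and 54.2 TPM in the Tg-GRK2-labelled libraries and 24.5, 23.8 and 25.9 TPM in FVB (log2 fold change 1.04 ± 0.04, adjusted p = 3.33e-15). In these 3 genes no Tg-GRK2-labelled heart fell within the range of the controls.

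Pck1, which supplies glycerol for re-esterification in fat, rose (log2 fold change 1.80 ± 0.11, adjusted p = 4.86e-11), and Lep, the adipocyte hormone leptin, had 90, 104 and 115 reads in the Tg-GRK2-labelled libraries and 22, 49 and 32 reads in FVB. Among the 5 list members that fell were Fabp4 (log2 fold change -0.29 ± 0.02, adjusted p = 1.06e-08), a fatty acid binding protein also made by capillary endothelium, and Lpl (log2 fold change -0.22 ± 0.01, adjusted p = 1.06e-11), the lipoprotein lipase that cardiomyocytes make. Both are far more abundant in control hearts than the other members named here, and the summed level of the list was 2653 to 2722 TPM against 2958 to 2979.5 TPM in FVB. The brown fat uncoupler Ucp1 had 205, 184 and 184 reads in the Tg-GRK2-labelled libraries and 27, 46 and 37 reads in FVB (log2 fold change 2.28 ± 0.14, adjusted p = 5.15e-11), and the beta-3 adrenoceptor Adrb3, the adipocyte subtype, had 43, 35 and 36 reads in the Tg-GRK2-labelled libraries and 5, 9 and 4 reads in FVB (log2 fold change 2.55 ± 0.30, adjusted p = 1.44e-06). In the brown adipocyte list, where many members are also cardiac genes of oxidative metabolism, 6 of 16 rose and 6 fell.

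Of 30 genes of fatty acid and cholesterol synthesis, 8 rose and 1 fell, and those with the smallest p-values belonged to fatty acid synthesis. Scd1, the stearoyl-CoA desaturase that makes monounsaturated fatty acids, had 99.3, 101 and 98.3 TPM in the Tg-GRK2-labelled libraries and 28.9, 29.7 and 29.1 TPM in FVB (log2 fold change 1.72 ± 0.02, adjusted p = 5.01e-23), the smallest p of all genes tested. Fasn, fatty acid synthase, had 27.3, 28.9 and 26.7 TPM in the Tg-GRK2-labelled libraries and 14.7, 15.4 and 12.5 TPM in FVB (log2 fold change 1.11 ± 0.03, adjusted p = 1.95e-18). Acaca, which makes malonyl-CoA, and Elovl6, which lengthens palmitate, rose with them (log2 fold change 0.81 ± 0.04, adjusted p = 1.04e-11 for Acaca, and log2 fold change 1.43 ± 0.11, adjusted p = 1.91e-09 for Elovl6). Acly, which supplies cytosolic acetyl-CoA, rose by less (log2 fold change 0.40 ± 0.03, adjusted p = 8.08e-09). Each of these enzymes is abundant in fat as well as in liver, and the part of fat tissue in their levels was not tested.

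Fatty acid oxidation, the main fuel pathway of the adult heart, went the other way in small steps. Of 39 genes of uptake and oxidation, 27 fell and 2 rose, with a median log2 fold change of -0.12. With transcript length as an offset 26 fell and 4 rose. Pdk4, which shuts off pyruvate oxidation in fasting, had 86.9, 87.5 and 87.3 TPM in the Tg-GRK2-labelled libraries and 160.3, 157 and 155 TPM in FVB (log2 fold change -0.91 ± 0.02, adjusted p = 8.50e-19). Enzymes of the beta-oxidation spiral differed by less, such as Eci1, an enoyl-CoA isomerase (log2 fold change -0.27 ± 0.02, adjusted p = 7.08e-09), and Decr1, a dienoyl-CoA reductase (log2 fold change -0.21 ± 0.02, adjusted p = 1.27e-08).

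Pdk4 also belongs to the list of genes that glucocorticoids or fasting induce, of which 14 of 24 fell and 2 rose. Zbtb16, a zinc finger factor strongly induced by glucocorticoids, had 8.43, 7.83 and 8.66 TPM in the Tg-GRK2-labelled libraries and 18.7, 19.9 and 18.9 TPM in FVB (log2 fold change -1.27 ± 0.05, adjusted p = 5.97e-15). Irs2, the insulin receptor substrate raised by fasting, fell (log2 fold change -0.88 ± 0.05, adjusted p = 6.76e-11), as did Fkbp5, a chaperone and sensitive target of the glucocorticoid receptor (log2 fold change -0.70 ± 0.05, adjusted p = 2.39e-09). The metallothioneins Mt1 and Mt2, metal-binding proteins under glucocorticoid and zinc control, fell too (log2 fold change -0.58 ± 0.04, adjusted p = 5.43e-10 for Mt1, and log2 fold change -1.17 ± 0.09, adjusted p = 4.19e-09 for Mt2). Txnip, a glucose-responsive inhibitor of thioredoxin, rose with 188, 192 and 186 TPM in the Tg-GRK2-labelled libraries and 132, 136 and 129.7 TPM in FVB (log2 fold change 0.48 ± 0.02, adjusted p = 1.08e-14).

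Clock genes were also shifted, which is listed here because glucocorticoids and feeding follow a daily rhythm. Of 23 clock genes, 5 rose and 10 fell. Nr1d1, the repressor REV-ERB-alpha, rose with 41.2, 40.1 and 41.00 TPM in the Tg-GRK2-labelled libraries and 25.99, 24.1 and 25.8 TPM in FVB (log2 fold change 0.64 ± 0.03, adjusted p = 7.81e-12). Per2, a repressor of the clock's negative limb, had 4.13, 4.36 and 4.13 TPM in the Tg-GRK2-labelled libraries and 6.81, 6.51 and 6.104 TPM in FVB (log2 fold change -0.67 ± 0.05, adjusted p = 1.63e-09), and Cry1, its partner, also fell (log2 fold change -0.57 ± 0.07, adjusted p = 2.82e-06). Per1 fell by less (log2 fold change -0.32 ± 0.04, adjusted p = 3.05e-06), and its most abundant transcript alone did not (log2 fold change 0.65, adjusted p = 0.698). The time of day at which each heart was taken is not given in the sources used here, and its part was not tested.

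**Figure D3:**
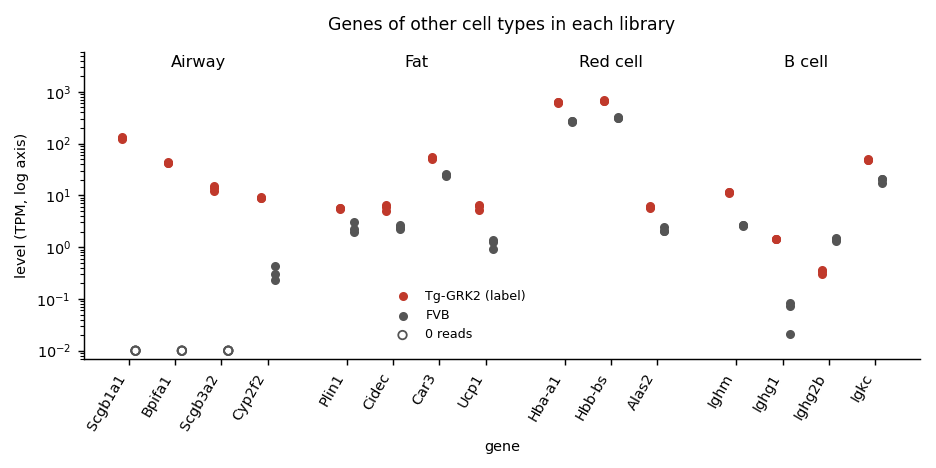
TPM of genes of airway secretory cells, adipocytes, red cells and B cells in each library, on a log axis that starts at 0.01 TPM, where libraries with 0 reads are drawn as open points. Scgb1a1, Bpifa1 and Scgb3a2 were at 0 in the 3 FVB libraries, Ighg2b was lower in the Tg-GRK2-labelled libraries, and the other genes drawn were present in controls at lower levels.

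Blood cell genes differed as well. Of 10 red cell genes, 7 rose and 0 fell, and the summed level was 1773 to 1796 TPM in the Tg-GRK2-labelled libraries and 844 to 854 TPM in FVB. It was higher still in the Tg-RKIP hearts, at 3581 to 3747 TPM. In the direct contrast 5 of these genes were lower than in Tg-RKIP and 2 higher, beside 37.9% and 36.6% of all genes. Hba-a1, an alpha globin with the near-identical copy Hba-a2, had 634, 646 and 613 TPM in the Tg-GRK2-labelled libraries and 268, 268 and 266 TPM in FVB (log2 fold change 1.19 ± 0.03, adjusted p = 1.95e-18). Hbb-bs, a beta globin, had 678, 689 and 672 TPM in the Tg-GRK2-labelled libraries and 318, 307 and 326 TPM in FVB (log2 fold change 1.05 ± 0.02, adjusted p = 1.99e-18). Alas2, the haem synthesis enzyme of young red cells, rose similarly (log2 fold change 1.47 ± 0.11, adjusted p = 1.44e-09). Ppbp, a chemokine stored in platelets, had 127, 120 and 141 reads in the Tg-GRK2-labelled libraries and 24, 21 and 23 reads in FVB (log2 fold change 2.41 ± 0.16, adjusted p = 2.27e-10). How much blood the hearts held when frozen is not given in the sources used here and was not tested.

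Of 20 B and plasma cell genes, 10 rose and 1 fell. Their summed level was 113 to 115 TPM in the Tg-GRK2-labelled libraries and 66.1 to 71.1 TPM in FVB. In the Tg-RKIP hearts it was 368 to 382 TPM. In the direct contrast 15 of these genes were lower than in Tg-RKIP and 1 higher, beside 37.9% and 36.6% of all genes. Ighm, the heavy chain of IgM, had 11.3, 11.5 and 11.7 TPM in the Tg-GRK2-labelled libraries and 2.63, 2.596 and 2.72 TPM in FVB (log2 fold change 2.07 ± 0.05, adjusted p = 4.65e-18). Ighg1, the heavy chain of IgG1, had 142, 137 and 161 reads in the Tg-GRK2-labelled libraries and 7, 9 and 2 reads in FVB (log2 fold change 4.49 ± 0.20, adjusted p = 2.92e-13), whereas Ighg2b, that of IgG2b, had 33, 28 and 39 reads in the Tg-GRK2-labelled libraries and 133, 134 and 129 reads in FVB (log2 fold change -2.08 ± 0.13, adjusted p = 8.81e-11). The 2 IgG classes thus differed in opposite directions, and in neither did the groups overlap. Igkc, the kappa light chain, and Jchain, which joins IgM and IgA multimers, rose (log2 fold change 1.29 ± 0.07, adjusted p = 2.64e-12 for Igkc, and log2 fold change 1.59 ± 0.14, adjusted p = 1.30e-08 for Jchain). Pax5, the factor that defines B cells, had 17, 17 and 17 reads in the Tg-GRK2-labelled libraries and 2, 1 and 1 reads in FVB, a ratio of 11.9 (95% exact interval 4.39 to 45.5).

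Fibroblast and matrix genes were higher to a moderate degree. Of 20 genes of fibroblast identity, 16 rose and 2 fell, with a median log2 fold change of 0.21, and with the length offset 16 rose and 2 fell. Pi16, which marks adventitial fibroblasts, had 33.6, 34.3 and 33.8 TPM in the Tg-GRK2-labelled libraries and 23.8, 24.01 and 20.8 TPM in FVB (log2 fold change 0.48 ± 0.04, adjusted p = 2.66e-09). Lum, a small proteoglycan of collagen fibrils, rose by less (log2 fold change 0.28 ± 0.02, adjusted p = 1.24e-08). Among 29 genes of fibrosis and fibroblast activation, 11 rose and 4 fell.

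Col3a1, the fibrillar collagen III chain, had 131, 133 and 141 TPM in the Tg-GRK2-labelled libraries and 85.96, 83.4 and 87.3 TPM in FVB (log2 fold change 0.76 ± 0.02, adjusted p = 3.66e-18). Col1a1 and Col1a2, the collagen I chains, rose with 43.7, 45.98 and 43.2 TPM in the Tg-GRK2-labelled libraries and 28.6, 27.3 and 28.4 TPM in FVB for Col1a1 (log2 fold change 0.61 ± 0.02, adjusted p = 1.02e-14), and at 0.45 ± 0.02 on the log2 scale for Col1a2 (adjusted p = 1.54e-14). Fn1, fibronectin, rose as a gene sum (log2 fold change 0.47 ± 0.03, adjusted p = 1.33e-11) but not in its most abundant transcript alone (log2 fold change -0.29, adjusted p = 0.213). A rise was also seen in Fbn1, the microfibril protein fibrillin-1 (log2 fold change 0.72 ± 0.04, adjusted p = 3.11e-11). Spp1, osteopontin, a secreted phosphoprotein raised in injured hearts, had 16, 20 and 33 reads in the Tg-GRK2-labelled libraries and 53, 64 and 56 reads in FVB (log2 fold change -1.42 ± 0.18, adjusted p = 4.56e-06). Acta2, the smooth muscle actin of myofibroblasts and vessels, fell (log2 fold change -0.30 ± 0.02, adjusted p = 3.94e-10). Collagen genes thus rose while Spp1 and Acta2 fell, and the median of the activation list was 0.04. In the direct contrast the Tg-GRK2-labelled libraries were below Tg-RKIP in 28 of 29 of these genes (28 with the length offset), where 37.9% of all genes were lower, and Col3a1 had 371, 355 and 367 TPM in the Tg-RKIP hearts (-0.87 on the log2 scale, adjusted p = 8.41e-21).

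Blood endothelial genes leaned downward. Of 27 tested, 16 fell and 4 rose, with a median log2 fold change of -0.12, and 14 fell with the length offset. Aqp1, the water channel of microvessels, had 119.8, 118 and 117 TPM in the Tg-GRK2-labelled libraries and 154, 151 and 152 TPM in FVB (log2 fold change -0.41 ± 0.02, adjusted p = 4.30e-13). Gpihbp1, which carries lipoprotein lipase across capillary cells, and Ly6c1, a surface protein of capillaries, also fell (log2 fold change -0.47 ± 0.04, adjusted p = 8.24e-09 for Gpihbp1, and log2 fold change -0.46 ± 0.03, adjusted p = 3.83e-10 for Ly6c1). Kdr, the VEGF receptor 2, rose (log2 fold change 0.19 ± 0.02, adjusted p = 2.53e-06). Lists of the heart surface and of nerve had members that rose and none that fell: 6 of 14 mesothelial genes rose, such as Upk3b (log2 fold change 0.29 ± 0.04, adjusted p = 3.58e-05), and 6 of 17 Schwann cell and nerve genes, such as Dbh, which makes noradrenaline in sympathetic fibres (log2 fold change 0.42 ± 0.09, adjusted p = 0.00200). By DESeq2 5 and 2 genes of these lists passed.

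The identity of the tissue as heart was checked on myocyte genes. Myh6, the adult myosin heavy chain of mouse heart, had 7600.2, 7866 and 7707 TPM in the Tg-GRK2-labelled libraries and 7297, 7504 and 7321 TPM in FVB, Nppa, the atrial natriuretic peptide, had 4262, 4256 and 4242 TPM in the Tg-GRK2-labelled libraries and 3830.5, 3929 and 3934 TPM in FVB, and all 30 myocyte genes listed were expressed. Their summed level was 97109 to 99809.8 TPM in the Tg-GRK2-labelled libraries and 100199 to 100874 TPM in FVB, a difference of a few percent. Of these genes 11 rose and 14 fell, and with transcript length entered as an offset 12 rose and 9 fell.

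Receptors and signalling genes of the adrenergic pathway on which GRK2 acts changed mostly in small steps, apart from Adrb3, whose log2 fold change was 2.55. Of 11 adrenoceptor and muscarinic receptor genes 4 rose and 1 fell. Adrb1, the main beta-adrenoceptor of the cardiomyocyte, had 10.98, 11.5 and 11.1 TPM in the Tg-GRK2-labelled libraries and 8.39, 9.75 and 9.14 TPM in FVB (log2 fold change 0.24 ± 0.05, adjusted p = 0.00162). Chrm2, the muscarinic receptor that slows the heart, rose slightly (log2 fold change 0.10 ± 0.02, adjusted p = 0.00114). Of 36 genes of the cAMP pathway 11 rose and 3 fell, among them Pde4a, a cAMP phosphodiesterase (log2 fold change 0.33 ± 0.03, adjusted p = 3.44e-08), and Akap1, which anchors protein kinase A at mitochondria (log2 fold change 0.27 ± 0.02, adjusted p = 1.44e-08). Prkar2b, a regulatory subunit of protein kinase A that is abundant in fat, had 4.04, 3.55 and 3.68 TPM in the Tg-GRK2-labelled libraries and 1.97, 2.45 and 2.21 TPM in FVB (log2 fold change 0.73 ± 0.09, adjusted p = 2.54e-06). Of 30 G protein and RGS genes 2 rose and 5 fell, and Rgs2, a GTPase activator for Gq, had 21.6, 23.4 and 25.1 TPM in the Tg-GRK2-labelled libraries and 35.2, 33.04 and 33.1 TPM in FVB (log2 fold change -0.52 ± 0.04, adjusted p = 4.16e-10).

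Of 24 genes of hypertrophy and heart failure 10 rose and 5 fell, and the natriuretic peptides and myosin changed in small steps. Nppa had a log2 fold change of 0.08 ± 0.01 (adjusted p = 3.84e-04), and Nppb, the brain natriuretic peptide, had 452, 475 and 456 TPM in the Tg-GRK2-labelled libraries and 401, 415 and 418 TPM in FVB (log2 fold change 0.11 ± 0.02, adjusted p = 5.37e-04). Myh7, the fetal myosin heavy chain, was lower (log2 fold change -0.09, adjusted p = 2.44e-04), and it was named after its values were seen. Ankrd1, a stress-responsive protein of the titin spring, fell (log2 fold change -0.17 ± 0.01, adjusted p = 2.84e-09), while Rcan1, a calcineurin target, rose (log2 fold change 0.29 ± 0.03, adjusted p = 8.90e-07). In the same list Nppa had 19472, 18933 and 19252 TPM in the Tg-RKIP hearts (-1.81 on the log2 scale, adjusted p = 8.31e-28), and the Tg-GRK2-labelled libraries were below Tg-RKIP in 18 and above it in 4 of these 24 genes (21 below with the length offset).

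Genes of calcium cycling and of ion channels were more often above than below the controls. Of 30 calcium cycling genes 13 rose and 3 fell, and of 35 myocyte ion channel genes 13 rose and 4 fell. Ryr2, the calcium release channel of the sarcoplasmic reticulum, had 287, 288 and 285 TPM in the Tg-GRK2-labelled libraries and 207, 209 and 206 TPM in FVB (log2 fold change 0.38 ± 0.02, adjusted p = 9.61e-14). Atp2a2, the calcium pump SERCA2, rose by little (log2 fold change 0.12 ± 0.01, adjusted p = 4.09e-09). S100a1, a small calcium sensor that binds SERCA2 and RYR2, fell (log2 fold change -0.18 ± 0.02, adjusted p = 3.08e-06), and the short ventricular light chain Myl2 fell among the sarcomere genes (log2 fold change -0.22 ± 0.02, adjusted p = 2.54e-09), where the giant protein gene Ttn rose (log2 fold change 0.33 ± 0.03, adjusted p = 8.56e-09). Of 41 sarcomere genes 15 rose and 19 fell, and with transcript length entered as an offset the balance turned to 16 that rose and 13 that fell.

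Across all genes the fold change varied with transcript length. When the genes tested were divided into 10 bins of equal size by transcript length, the median log2 fold change went from -0.09 in the bin of the shortest transcripts, up to 962 bases, to 0.06 in the bin of the longest, of 5430 bases or more. In the shortest bin 4.84% of genes rose and 25.5% fell, and in the longest 28.7% rose and 6.83% fell. Spearman's rho of log2 fold change and length was 0.215 across 15504 genes, which are not independent replicates. All 3 Tg-GRK2-labelled libraries showed the slope, and each library's medians by bin are drawn in the plot by transcript length. With a smooth function of length removed as an offset, an alternative added after seeing the data, 11.9% of genes rose and 9.69% fell. The calcium cycling and ion channel lists changed little with the offset, with 12 and 11 genes that rose and 2 and 3 that fell. Ryr2 then still rose (0.30, adjusted p = 1.29e-12) and Myl2 still fell (-0.10, adjusted p = 4.25e-06). RNA quality values are not given in the sources used here, and the part of RNA length or library preparation in the slope was not tested.

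**Figure D4:**
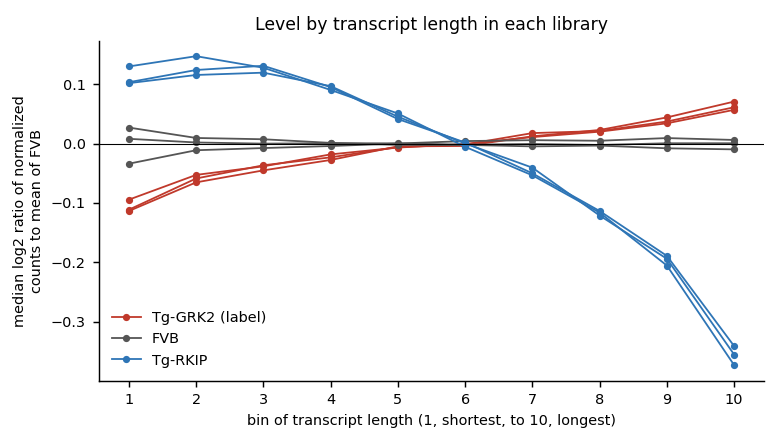
Median over genes of the log2 ratio of each library's TMM-normalized counts to the FVB mean, in 10 bins of transcript length with equal numbers of genes, for genes with a mean of at least 50 reads. The 3 Tg-GRK2-labelled libraries rose from the shortest to the longest bin, and the Tg-RKIP libraries fell more steeply, from between 0.102 and 0.130 to between -0.374 and -0.341.

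Gene lists made of short transcripts have to be read beside this slope. Of 84 cytosolic ribosomal protein genes 78 fell and 1 rose, with a median log2 fold change of -0.19 and a median transcript length of 569 bases. With the length offset 40 fell and the median was -0.07, where 9.69% of all genes fell and 11.9% rose. Rpl12, a protein of the large subunit, had 273, 275 and 274 TPM in the Tg-GRK2-labelled libraries and 324, 331 and 322 TPM in FVB (log2 fold change -0.30 ± 0.02, adjusted p = 6.60e-10). Of 39 nuclear genes of respiratory complex I 30 fell and 0 rose, and 5 fell with the offset. For complexes II to IV the counts were 22 of 30 that fell, and 3 with the offset, where 2 rose. In complexes I to IV the counts that fell with the offset were near the share over all genes. For the ATP synthase the counts were 15 of 18 that fell, and 6 with the offset, where 2 rose. Mitochondrial ribosomal protein genes fell in 23 of 77 cases and rose in 0 without the offset. With it 1 fell and 9 rose, the latter near the share over all genes. By DESeq2 without the offset 9 passed.

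In the proteasome list the offset changed the count of lower genes by little. Of 35 constitutive subunit genes, 27 fell and 0 rose, and 23 fell with the offset. Psmc1, an ATPase of the proteasome cap, had 102, 102 and 98.9 TPM in the Tg-GRK2-labelled libraries and 119, 118 and 117 TPM in FVB (log2 fold change -0.27 ± 0.02, adjusted p = 1.48e-08). The mitochondrially encoded genes took 22.6% ± 0.299 of reads in the Tg-GRK2-labelled libraries and 23.1% ± 0.158 in FVB (SD, n = 3; exact two-sided permutation test, p = 0.2, where 0.1 is the smallest p that 3 against 3 allows). Of the 13 among them that belong to the respiratory chain, 2 rose and 4 fell, and with the length offset the balance turned to 7 that rose and 2 that fell.

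Of the stress-related lists, oxidative stress, heat shock and immediate early genes leaned downward, while of 30 genes of the ER and integrated stress response 6 rose and 4 fell (9 and 3 with the length offset). Of 34 NRF2 and oxidative stress genes 21 fell and 3 rose, and 14 fell with the length offset. Nqo1, a quinone reductase and standard NRF2 target, had 46.8, 44.1 and 46.6 TPM in the Tg-GRK2-labelled libraries and 58.1, 53.3 and 57.6 TPM in FVB (log2 fold change -0.34 ± 0.04, adjusted p = 4.44e-07). Gclm, the modifier subunit of the enzyme that is rate-limiting for glutathione, fell (log2 fold change -0.45 ± 0.04, adjusted p = 3.82e-08). Of 29 heat shock and chaperone genes 16 fell and 5 rose, and with the length offset 12 fell and 7 rose. Hspa1a, the inducible HSP70, had 5.46, 5.23 and 4.94 TPM in the Tg-GRK2-labelled libraries and 8.33, 6.99 and 8.56 TPM in FVB (log2 fold change -0.66 ± 0.07, adjusted p = 5.47e-07). Its co-chaperone Dnajb1 was lower too (log2 fold change -0.62 ± 0.04, adjusted p = 1.83e-10). Of 28 immediate early genes 13 fell and 4 rose. Atf3, a stress-induced repressor, had 6.12, 5.18 and 5.33 TPM in the Tg-GRK2-labelled libraries and 11.8, 11.6 and 12.1 TPM in FVB (log2 fold change -1.24 ± 0.07, adjusted p = 7.47e-12), and Nr4a3, an orphan nuclear receptor, fell (log2 fold change -1.14 ± 0.09, adjusted p = 4.88e-09). Egr1, which growth factors induce, rose with 15.8, 13.8 and 15.6 TPM in the Tg-GRK2-labelled libraries and 7.84, 7.59 and 7.86 TPM in FVB (log2 fold change 0.93 ± 0.06, adjusted p = 3.81e-11). Immediate early genes therefore did not move as 1 block.

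**Figure D5:**
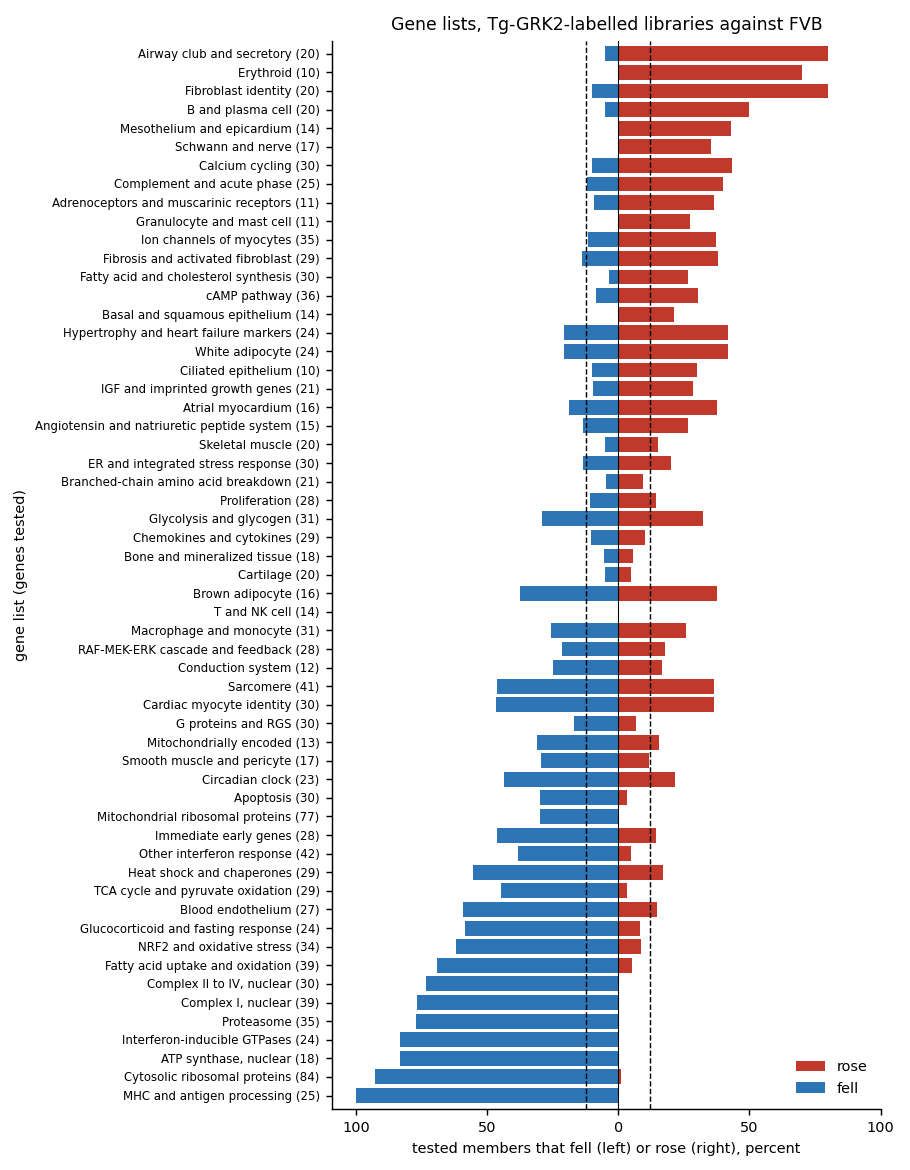
Share of tested members that rose (right) or fell (left) in each gene list with at least 10 tested genes, Tg-GRK2-labelled libraries against FVB, with dashed lines at 12.2% for all genes in each direction. MHC and antigen processing lies at 100% lower, and airway secretory genes reach 80% higher.

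The Tg-RKIP hearts served as the nearest comparison, since they share strain, sex, age and controls with the Tg-GRK2-labelled hearts. In the direct contrast 74.5% of genes passed, 36.6% higher and 37.9% lower in the Tg-GRK2-labelled libraries. This contrast depends on the scaling: with libraries scaled to their size alone, an alternative added after seeing the data, the median log2 difference over all genes was -0.383 rather than -0.0205, with 18.4% of genes higher and 62.0% lower. The medians by transcript length moved in opposite directions in the transgenic groups, and with the length offset 34.4% of genes were higher and 38.2% lower. The GTPases were low in both transgenic groups: Igtp had 8.77, 8.66 and 8.37 TPM in the Tg-GRK2-labelled libraries and 8.195, 8.45 and 8.65 TPM in Tg-RKIP, with FVB at 38.2, 39.04 and 38.6 TPM, and the direct contrast gave 0.41 on the log2 scale (adjusted p = 1.72e-06) but 0.05 with library size alone (adjusted p = 0.513). Class II genes, in contrast, separated the transgenic groups. H2-Aa had 60.3, 61.03 and 60.3 TPM in the Tg-GRK2-labelled libraries and 289.6, 280.1 and 286 TPM in Tg-RKIP (-1.76 on the log2 scale, adjusted p = 2.55e-23, and -2.12 with library size alone), and 22 of 25 antigen presentation genes were lower than in Tg-RKIP (20 with the length offset). In Tg-RKIP against FVB, 13 of these 25 genes were lower and 7 higher, with a median log2 fold change of -0.12. The share over all genes in that comparison is not given here. Scd1 had 105, 104 and 101 TPM in Tg-RKIP, close to its level in the Tg-GRK2-labelled libraries in TPM, while the fitted contrast was 0.31 on TMM-normalized counts (adjusted p = 2.20e-12) and -0.05 with library size alone (adjusted p = 0.0311), and 0.08 with the length offset. Ucp1 had 14.02, 13.2 and 13.1 TPM there (-0.80 on the log2 scale, adjusted p = 3.94e-08). Both comparisons with FVB use the same control hearts, so a value that is low or high in the controls appears in both.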

How the data were processed

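Gene expression was measured by RNA sequencing in 9 whole hearts of male mice, 3 each labelled Tg_GRK2, FVB and Tg_RKIP, and groups were taken from these labels. The deposited table holds read counts and TPM for 127558 transcripts. The authors' counts are whole numbers that were not normalized, and the deposited TPM, which the authors derived from those counts and transcript lengths, could be recomputed to within 5.50e-06. Coordinates are on GRCm39 per the submitters' processing notes, and the aligner, the counter, the annotation release and strand settings are not given in the sources used here. The 6 libraries compared held 26842772 to 32801403 reads. A share of counts or a ratio carries counting error only in its interval.

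Counts were summed by gene name (41710 names), filtered with filterByExpr, scaled with TMM and tested with edgeR 4.0.16 (R 4.3.3) by the quasi-likelihood test in a model of 1 mean per group over the 9 libraries, with Benjamini-Hochberg adjustment over 15504 genes and a threshold of 0.05. The test was checked on simulated counts. Single values of 3 against 3 were compared by exact permutation (scipy 1.17.1, Python 3.11.15). Alternatives were DESeq2 1.42.0 and its size factors, library size alone, other filters, a replicate block, the 6 libraries alone, each library left out, a minimum change of 1.5-fold, limma 3.58.1 on log2(TPM + 0.1) and log2(TPM + 1), the most abundant transcript of each gene, and omission of mitochondrial genes. Offsets for transcript length and GC content (loess, span 0.3), single transcripts, and library size alone and the length offset against Tg-RKIP were added after seeing the data.

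The comparison and the 63 gene lists were chosen with earlier results of these data known. Genes named are the GRK and arrestin list, the 15 largest changes in each direction among genes with at least 100 reads on average in the higher group and no overlap of libraries, the 10 smallest p in each direction, and up to 6 members of each list by p. Some genes that the rule names are not reported here. Predicted names were left out apart from F830016B08Rik, a list member. Ifng, Foxj1, Sftpc, Sftpa1, Krt5, Tg, Tshr, Cd3e, Ncr1, Lep, Ryr2, Ttn, Nppa, Nppb, Myh6, Myh7 and Gm12185 were added after their values were seen. Lists are described by counts and medians without a set test. Replicate numbers are shared by the groups, but same-numbered libraries did not deviate together (correlations from -0.0492 to -0.0199), and the main test has no block.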

Additional observations from a re-analysis of the deposited data

How the results depend on the processing

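The count of 3793 changed genes stayed between 2554 and 3839 under the alternatives apart from a pair: 155 genes passed for a change of at least 1.5-fold, and 1665 with the most abundant transcript of each gene alone. Leaving out 1 library gave 3114 to 3303. With the replicate number as a block, 3660 genes passed, 3601 of them among the 3793, and no named gene with a quoted test lost its call under the block. By limma on TPM the calls were 1772 higher and 815 lower, against 1895 and 1898 in the edgeR test. For genes changed by at least 1 on the log2 scale, 245 became 386 without a filter, 94 with a mean of at least 50 counts, 127 against 1.5-fold, and 135 or 74 by limma with a pseudocount of 0.1 or 1. Of the genes chosen by the naming rule 314 passed, and 70 against 1.5-fold. Of all list members 744 passed, 88 against 1.5-fold and 440 with the most abundant transcript alone. Grk2 turned from 0.05 to -0.10 on the log2 scale (adjusted p = 0.213) with its most abundant transcript, as did Fn1 (-0.29) and Per1 (0.65), Pebp1 was at 0.0124 with the length offset, and the median of the brown adipocyte list went from 0.18 to -0.12 with a mean of at least 50 counts. The difference in mitochondrial share was -0.522 percentage points of reads and -0.00767 of TPM. The causes were not tested. The count of 11551 genes against Tg-RKIP ranged from 11263 to 12455. By DESeq2 the members called fell to 3 of 7 for smooth muscle, 4 of 7 for G proteins, 7 of 11 for RAF-MEK-ERK, 4 of 10 for apoptosis, 3 of 7 for cell cycle, 3 of 5 each for adrenoceptor and conduction, 1 of 3 for alveolar and 0 of 1 for GRK and arrestin genes. Of 2333 values of quoted log2 fold changes of genes other than Grk2 under these alternatives, 2330 kept their direction (all but those named here) and 2228 also their side of the threshold. At this depth genes with a few reads per library, such as Ifng, could not be tested, and 3 hearts a group cannot separate groups by an exact test below p = 0.1.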

Other observations

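Complement and acute phase genes were more often higher than lower. Of 25 tested, 10 rose and 3 fell, beside 12.2% of all genes in each direction. Hp, haptoglobin, which binds free haemoglobin, had 10.05, 10.1 and 10.1 TPM in the Tg-GRK2-labelled libraries and 5.39, 4.24 and 3.67 TPM in FVB (log2 fold change 1.15 ± 0.09, adjusted p = 4.09e-09). C4b and C3, central components of the complement cascade, rose by less (log2 fold change 0.38 ± 0.03, adjusted p = 6.39e-09 for C4b, and log2 fold change 0.22 ± 0.02, adjusted p = 1.59e-08 for C3). C7, a component of the membrane attack complex, fell (log2 fold change -0.35 ± 0.03, adjusted p = 4.62e-08). Saa3, an acute phase apolipoprotein made outside the liver, had 24, 32 and 27 reads in the Tg-GRK2-labelled libraries and 3, 0 and 2 reads in FVB, a ratio of 15.5 (95% exact interval 6.397 to 49.1) that covers counting error only. Of 11 granulocyte and mast cell genes 3 rose and 0 fell, and their summed level was 13.2 to 14.2 TPM in the Tg-GRK2-labelled libraries and 5.699 to 6.72 TPM in FVB. The log2 fold changes of the genes that rose ran from 0.42 to 6.81. Neutrophil genes can also be made by secretory glands, as Ltf is, and the part of granulocytes in this sum was not tested. S100a8, a calcium-binding protein of neutrophils, had 10, 5 and 11 reads in the Tg-GRK2-labelled libraries and 2, 1 and 1 reads in FVB.

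Of 28 cell cycle genes 4 rose and 3 fell, close to the share over all genes in each direction. Mki67, which marks dividing cells, had 248, 187 and 226 reads in the Tg-GRK2-labelled libraries and 129, 205 and 130 reads in FVB (log2 fold change 0.42 ± 0.13, adjusted p = 0.0185). The gene did not pass without Tg-GRK2 replicate 1, FVB replicate 1 or FVB replicate 3 (adjusted p = 0.117, 0.0968 and 0.0894), nor with the length offset (adjusted p = 0.0651). It also failed by limma on log2(TPM + 0.1) and log2(TPM + 1) (adjusted p = 0.123 and 0.118). Its most abundant transcript alone did not pass (adjusted p = 0.152), nor did the gene against a minimum change of 1.5-fold. Of 30 apoptosis genes 9 fell and 1 rose, with Casp12, a caspase of the endoplasmic reticulum, at 11.7, 12.4 and 12.1 TPM in the Tg-GRK2-labelled libraries and 15.8, 17.3 and 15.3 TPM in FVB (log2 fold change -0.54 ± 0.06, adjusted p = 5.96e-07), and Bcl2l1, which encodes the survival protein BCL-XL, also lower (log2 fold change -0.33 ± 0.04, adjusted p = 2.16e-06). Of 29 genes of the citric acid cycle and pyruvate oxidation 13 fell and 1 rose, and 7 fell with the length offset. Idh2, the mitochondrial NADP-dependent isocitrate dehydrogenase, had 1092, 1138 and 1093 TPM in the Tg-GRK2-labelled libraries and 1260.5, 1254 and 1246 TPM in FVB (log2 fold change -0.23 ± 0.02, adjusted p = 3.83e-10), while Pcx, pyruvate carboxylase, which is abundant in fat, rose (log2 fold change 0.45 ± 0.04, adjusted p = 1.57e-08). Of 31 glycolysis and glycogen genes 10 rose and 9 fell. Hk2, an insulin-responsive hexokinase, rose (log2 fold change 0.27 ± 0.02, adjusted p = 6.19e-10), and Ugp2, which makes UDP-glucose for glycogen, fell (log2 fold change -0.27 ± 0.02, adjusted p = 6.19e-10).

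Lists of skeletal tissues had few members that passed. Of 18 bone genes 1 rose and 1 fell, of 20 cartilage genes 1 rose and 1 fell, and of 20 skeletal muscle genes 3 rose and 1 fell. Of 17 smooth muscle and pericyte genes 2 rose and 5 fell. In the RAF-MEK-ERK list, on whose first kinase RKIP acts, 5 of 28 rose and 6 fell. Pebp1, the gene of RKIP itself, had 327, 319 and 316 TPM in the Tg-GRK2-labelled libraries and 324, 329.8 and 321 TPM in FVB, and its log2 fold change of -0.07 ± 0.02 (adjusted p = 0.00342) was 0.01 with the length offset (adjusted p = 0.632).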
